A study of Rattus norvegicus with 83 samples.

Results

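The DNA replication and nucleotide supply genes examined here are 43 genes taken from a list by symbol: 14 that license origins or form the replicative helicase, 17 that act at the replication fork, 6 that supply or guard deoxynucleotides, 4 that copy chromatin marks and nucleosomes, and 2 S phase cyclins. Of the 43, 42 had a row among the 17483 gene symbols of the count table. Chaf1a was not analysed here. RNA came from offspring of Sprague-Dawley rats, in 83 libraries labelled testis. Dams had been gavaged once a day from gestational day 7 with methimazole at 8 mg/kg body weight (MMI8) or 16 mg/kg (MMI16), with amitrole at 25 mg/kg (Ami25) or 50 mg/kg (Ami50), or with the corn oil vehicle alone. Libraries labelled pup day 16 (PD16) numbered 10 for MMI8, 10 for MMI16, 11 for Ami25, 12 for Ami50 and 10 for vehicle, and each of the same 5 treatments had 6 libraries with the label gestational day 21 (GD21). All groups shared the strain, the gavage and the corn oil, and methimazole and amitrole each block thyroid peroxidase, on which the making of thyroid hormone depends. The labels name no litter or animal, so pups of 1 dam may stand as separate libraries and p-values reflect the spread among these libraries alone. The study asked how maternal dosing with either compound changed RNA levels in the offspring at each labelled stage.

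Before a cell copies its genome, the origin recognition complex, Cdc6 and Cdt1 load rings of Mcm2 to Mcm7 onto DNA, and geminin (Gmnn) holds Cdt1 in check once replication has begun. Cyclin E and its kinase help the rings to start, Cdc45 and the GINS complex turn them into a moving helicase, and polymerases, the Pcna clamp, its loader Rfc, Rpa and ligase follow at the fork. Ribonucleotide reductase, of the subunits Rrm1 and Rrm2, makes the deoxynucleotides. Transcription of many of these genes climbs as cells enter S phase and is driven by E2F factors, so their summed RNA is often read as a gauge of how many cells are dividing. In the testis after birth the Sertoli cells divide for a limited time, and thyroid hormone is known to end that period in the rat.

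Promoter windows of the members were read from RefSeq sequence of the GRCr8 assembly, 250 bases before to 50 bases after each annotated start, and 37 of the 43 members had at least 1 window (40 windows). Mcm4, Cdc6, Gins4, Rpa3, Rrm2 and Ccne2 had no entry. The E2F letters searched were TTTCGCGC and TTTGGCGC, on both strands, and were found in 15 of the 40 member windows (37.5%), against 265 of all 33469 RefSeq windows of that length (0.792%). The letters CCAAT, the core bound by NF-Y, were found in 24 member windows (60%), against 37.5% of all windows. The windows of Mcm3, Mcm6 and Mcm7 are shown because these helicase genes moved together across the groups described below, and that of Tyms because it holds the same kind of letters and moved otherwise. Each is written 5′ to 3′ along the gene, with E2F matches on either strand in capitals. They lie at chr9:30733697-30733996, minus strand; chr13:42404303-42404602, minus strand; chr12:22163129-22163428, minus strand; and chr9:120776034-120776333, minus strand.
Mcm3: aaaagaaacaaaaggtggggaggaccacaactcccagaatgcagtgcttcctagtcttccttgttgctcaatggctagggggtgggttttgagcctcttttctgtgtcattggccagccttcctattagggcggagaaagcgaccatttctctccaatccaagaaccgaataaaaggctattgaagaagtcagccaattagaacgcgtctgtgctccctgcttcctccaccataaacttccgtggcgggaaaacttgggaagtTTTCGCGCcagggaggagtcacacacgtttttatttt
Mcm6: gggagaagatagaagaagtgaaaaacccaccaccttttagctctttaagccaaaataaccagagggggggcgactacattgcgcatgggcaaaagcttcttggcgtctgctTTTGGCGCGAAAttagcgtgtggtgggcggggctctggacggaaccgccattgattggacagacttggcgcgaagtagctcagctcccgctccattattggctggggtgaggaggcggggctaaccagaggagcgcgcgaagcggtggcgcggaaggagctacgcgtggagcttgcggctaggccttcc
Mcm7: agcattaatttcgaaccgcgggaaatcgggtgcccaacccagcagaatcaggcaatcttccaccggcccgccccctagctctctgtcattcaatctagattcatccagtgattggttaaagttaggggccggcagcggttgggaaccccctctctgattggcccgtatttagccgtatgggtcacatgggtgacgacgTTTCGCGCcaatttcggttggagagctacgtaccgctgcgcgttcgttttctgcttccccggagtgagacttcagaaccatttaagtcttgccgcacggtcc
Tyms: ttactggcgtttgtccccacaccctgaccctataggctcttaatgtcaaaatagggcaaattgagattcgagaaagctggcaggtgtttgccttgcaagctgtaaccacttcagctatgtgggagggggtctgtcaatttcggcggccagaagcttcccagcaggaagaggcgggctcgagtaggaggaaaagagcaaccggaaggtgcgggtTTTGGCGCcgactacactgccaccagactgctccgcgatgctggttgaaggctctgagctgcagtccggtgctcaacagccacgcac
In the Mcm6 window the capitals are 2 matches, 1 on each strand, that overlap by 4 bases. A match describes the letters only.

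Total counts per library ran between 202270 and 1186973 in PD16 (median 492083) and between 495369 and 1627114 in GD21 (median 963356). At the PD16 median 1 count equals 2.03 CPM (counts with the library total set to 1000000), the scale of every level given here. Several labels met values that went against them. Of 13 testis genes in the table, 11 had at most 26 counts over all 83 libraries (Amh of Sertoli cells had 6, Ddx4 of germ cells 7, and Dmrt1 and Prm1 0). The other 2 did not: Sox9, a Sertoli cell factor also made in other tissues, had 2145 counts and averaged 139 CPM in PD16 vehicle, and Inha, made in gonads and adrenal cortex, had 6693 counts and averaged 205.0 CPM there. By comparison, 9 adrenal cortex genes summed to 19240.2 ± 2535 CPM in PD16 vehicle (SD, n = 10), most of it from steroid enzyme genes. Over all 83 libraries the enzyme gene Cyp11a1 had 753030 counts, but Nr5a1, also on that list, had 47. The embryonic globins Hbe1, Hbz and Hbg1, made in the yolk sac, took 17.1 ± 2.82% of globin counts in PD16 MMI8, 16.4 ± 4.28% in PD16 MMI16, 0.180 ± 0.0698% in PD16 Ami25, 0.142 ± 0.0798% in PD16 Ami50 and 14.8 ± 2.51% in PD16 vehicle (SD), but at most 0.878% in any GD21 library. Of the 12 PD16 Ami50 libraries 8 had under 10 CPM of the Y-linked gene Eif2s3y, and in 15 libraries of 8 groups the liver gene Alb reached 200 CPM. The groups are therefore called by their labels only.

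In the PD16 amitrole libraries nearly every replication gene tested was lower than in vehicle, with a median log2 fold change of -0.93 in Ami50. In the PD16 methimazole libraries 2 genes were lower, Mcm4 and Rrm2, and the median of the members was 0.05 in MMI16. Summed over the 42 members, PD16 MMI8 libraries reached 4948 to 5686 CPM, MMI16 libraries 4010.2 to 5489, Ami25 libraries 1898 to 2712 and Ami50 libraries 1915 to 2729, against 5057 to 9617 in vehicle. Every amitrole library lay below every vehicle library. Rrm2 alone supplied 37.6 ± 11.7% of member counts in PD16 vehicle (SD, n = 10), and it and Mcm4 did not follow the other members. Both were left out of the next sums after their values had been seen, so those sums carry no test. Without Mcm4 and Rrm2 the sums averaged 4011 ± 189.8 CPM in MMI8, 4073 ± 211 in MMI16, 2014 ± 178 in Ami25 and 2029 ± 165 in Ami50, against 3843 ± 329 in vehicle (SD). The same sum averaged 1705 ± 168, 1719 ± 111, 1763 ± 190.4 and 1799.5 ± 232 CPM in GD21 MMI8, MMI16, Ami25 and Ami50, against 1738 ± 149 CPM in GD21 vehicle (SD, n = 6 each). PD16 amitrole libraries thus lay at 1665 to 2251 CPM (Ami25) and 1624 to 2181 CPM (Ami50), a range that met the GD21 vehicle range of 1600.1 to 2010.4 CPM and stayed under the PD16 vehicle range of 3311 to 4415 CPM. In bulk RNA, fewer dividing cells and less of this RNA per cell cannot be told apart.

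**Figure D1:**
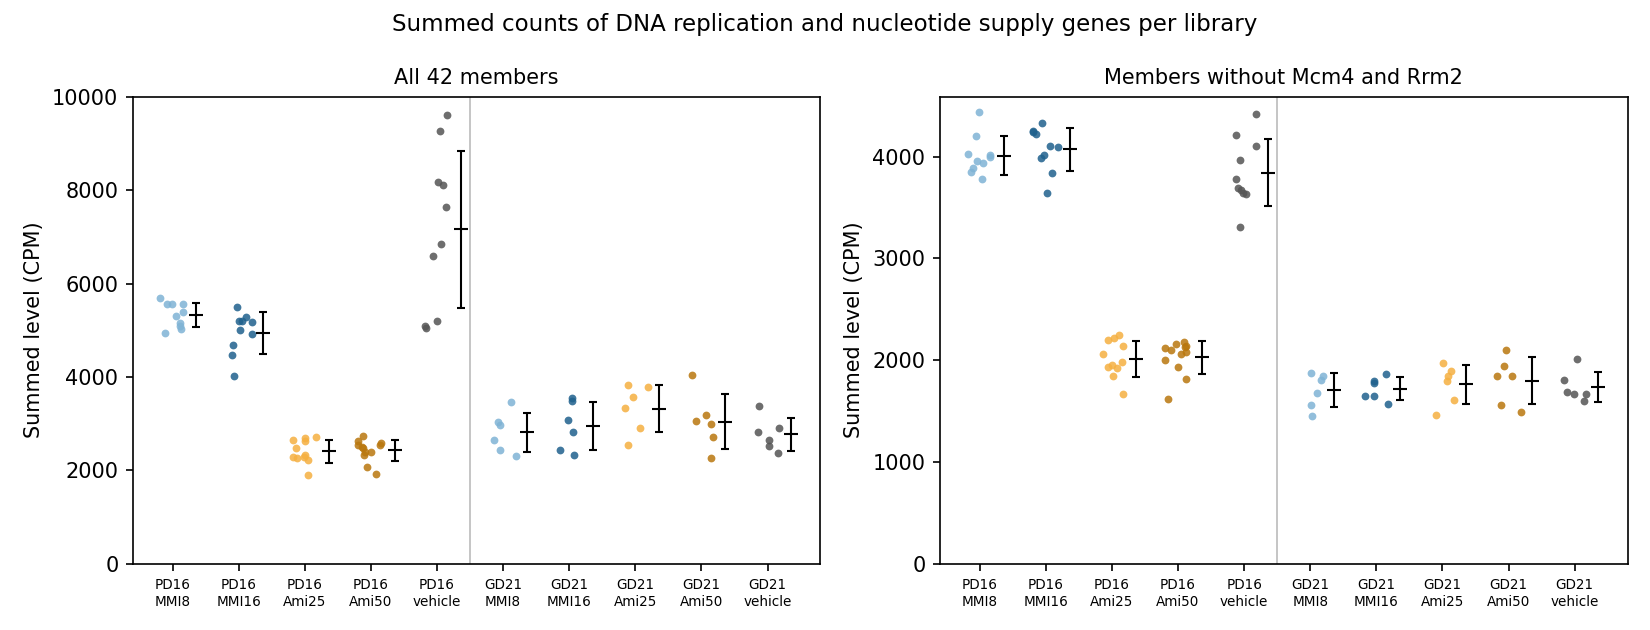
Summed level of the members in each library, in CPM (counts with the library total set to 1000000, linear axis), for PD16 groups left of the grey line and GD21 groups right of it, with the mean and SD beside the points. With all 42 members (left) PD16 vehicle is the highest and most spread group. Without Mcm4 and Rrm2 (right) PD16 MMI8, MMI16 and vehicle lie together, with means between 3843 and 4073 CPM. PD16 Ami25 and Ami50 there lie near the GD21 groups. Mcm4 and Rrm2 were left out after their values had been seen.

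Genes were tested with edgeR's quasi-likelihood F test, and a gene is called here where its adjusted p (Benjamini-Hochberg over all genes tested) was under 0.05. Of 38 members tested at PD16, 35 fell and 1 rose in Ami25 against vehicle, where 26.9% of all 4906 genes tested fell and 27.5% rose. In Ami50 against vehicle 36 fell and 1 rose, where 26.0% of all genes fell and 26.4% rose. The median log2 fold change of the members was -0.97 in Ami25 and -0.93 in Ami50, against 0.01 and 0.02 over all genes tested. Tyms was the member that rose. Pola2 was not called in either group (log2 fold change 0.15 in Ami25 and 0.09 in Ami50), nor was Pold1 in Ami25 (-0.46). The libraries of 18 members in Ami25 and 17 in Ami50 lay wholly below those of vehicle, where 8.74% and 8.76% of all genes did. All 4 PD16 comparisons with vehicle share the same 10 vehicle libraries.

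In methimazole libraries 2 of the 38 members were called, both lower at both doses: Mcm4 and Rrm2. Over all genes 6.75% fell and 1.37% rose in MMI8, and 7.07% fell and 0.713% rose in MMI16, so the members' share of falls was near that of all genes. DESeq2 also called 2 members at each dose. Unadjusted p was under 0.05 for 4 members in MMI8 (of 38, against 16.5% of all genes) and 4 in MMI16 (against 15.3% of all genes), among them the clamp loader gene Rfc2 (0.26 in MMI8 and 0.22 in MMI16). The members' median log2 fold change was -0.02 in MMI8 and 0.05 in MMI16, against 0.01 and 0.07 over all genes. Among members that missed the threshold, the helicase gene Mcm7 had a log2 fold change of 0.08 in MMI16 (95% interval -0.15 to 0.30), the clamp gene Pcna 0.13 (-0.08 to 0.34) and Rrm1 0.03 (-0.16 to 0.23).

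**Figure D2:**
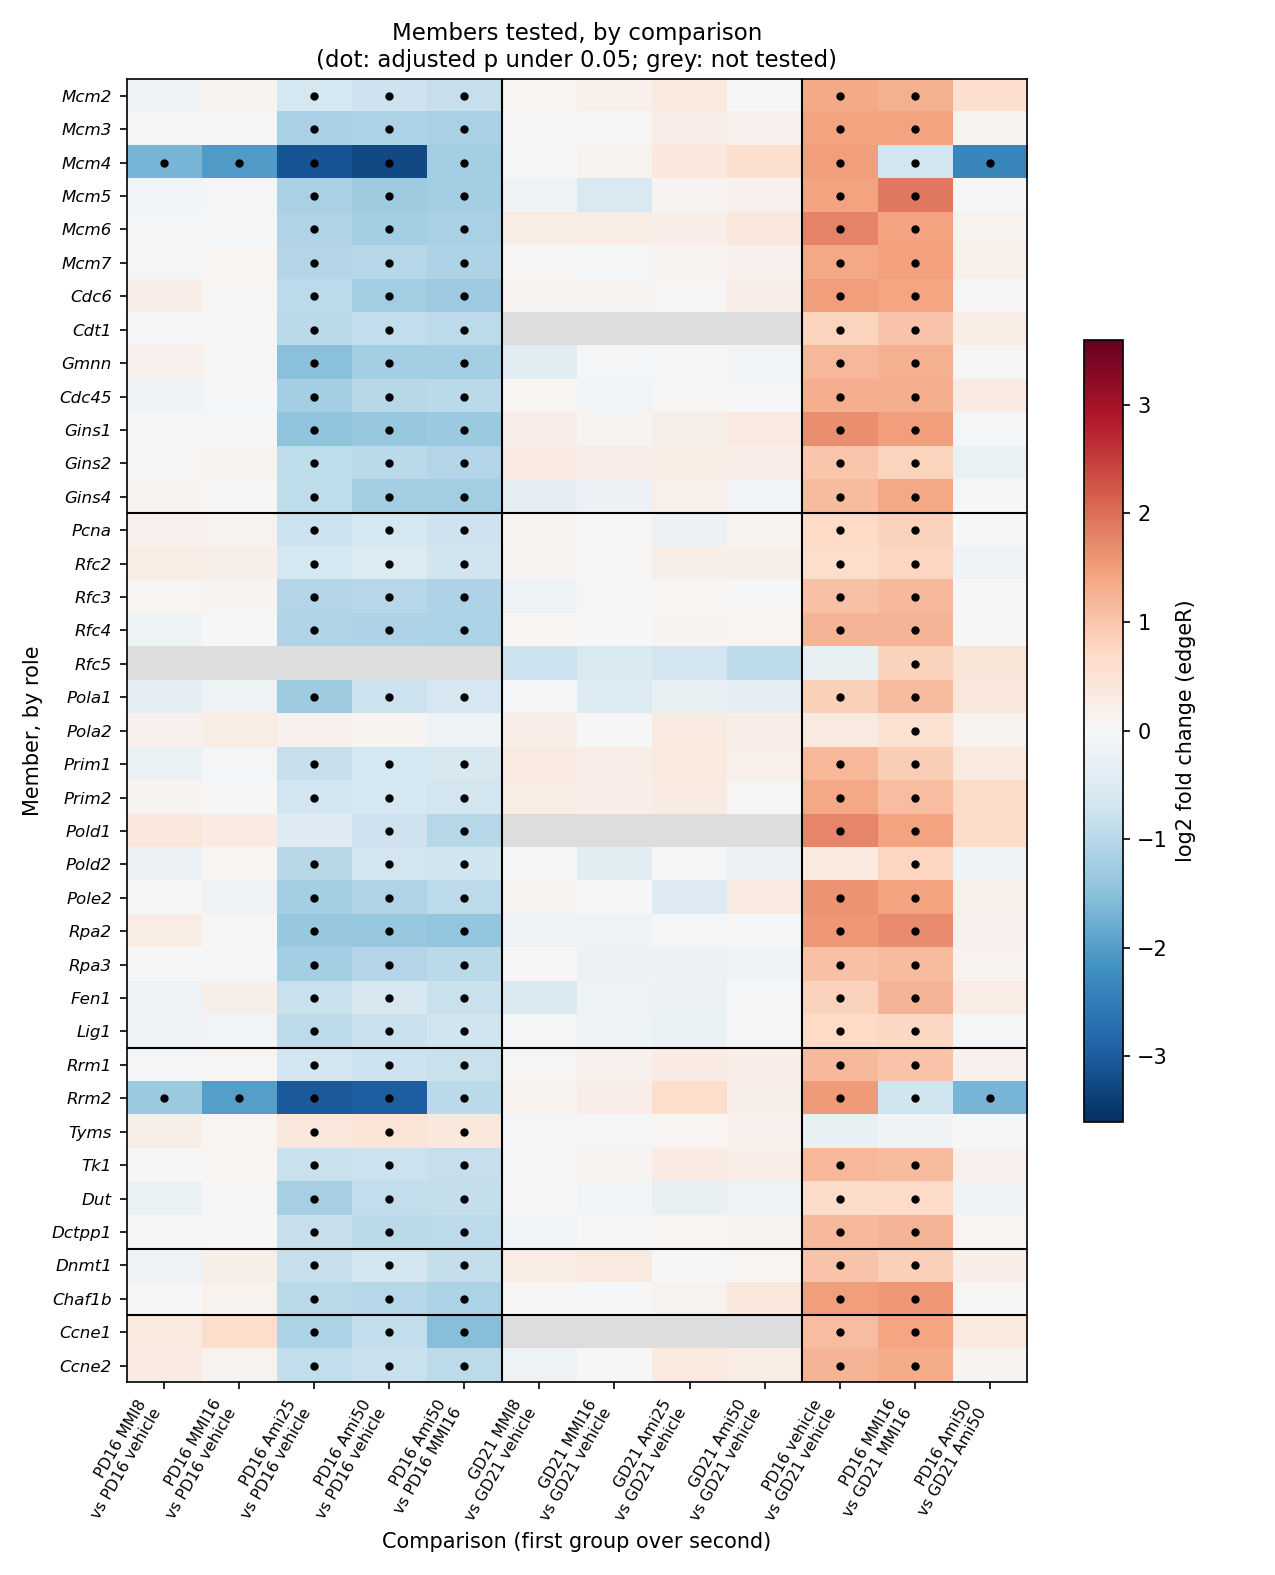
Log2 fold change (edgeR, colour) of each member tested, in rows by role, in 12 comparisons in columns, first group over second; a dot marks an adjusted p under 0.05 and grey a member not tested. The Ami25, Ami50 and Ami50 over MMI16 columns are blue in nearly every row, the GD21 columns hold no dot, and the Mcm4 and Rrm2 rows differ from their neighbours in the methimazole columns and in both treated stage columns at the right.

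The helicase and licensing genes fell as a block in amitrole libraries. All 13 tested fell in both Ami25 and Ami50, with a median log2 fold change of -1.09 and -1.21. Of all genes tested, 26.9% fell in Ami25 and 26.0% in Ami50. Mcm7, a subunit of the helicase ring, was measured at 126 to 250.5 CPM in PD16 MMI8 (median 186), 138 to 259 CPM in PD16 MMI16 (median 203), 68.4 to 114 CPM in PD16 Ami25 (median 84.7) and 46.2 to 114 CPM in PD16 Ami50 (median 91.7), against 132 to 214 CPM in PD16 vehicle (median 183). No amitrole library reached the lowest vehicle library, and the MMI ranges overlapped that of vehicle. Mcm7 fell 2.04-fold in Ami50 (log2 fold change -1.03, SE 0.11, adjusted p = 1.47e-11) and had a log2 fold change of -1.04 in Ami25. In GD21 it was measured at 51.1 to 99.2 CPM in GD21 Ami50 (median 68.9), against 57.2 to 76.1 CPM in GD21 vehicle (median 64.0).

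Mcm3 and Mcm6, other subunits of the ring, moved like Mcm7. Mcm3 averaged 52.3 ± 15.7 CPM in Ami25 and 51.1 ± 11.0 CPM in Ami50, against 119.6 ± 21.5 CPM in vehicle (SD), and fell 2.22-fold in Ami50 (log2 fold change -1.15, SE 0.12, adjusted p = 2.25e-12). The same groups averaged 54.7 ± 13.6 CPM and 50.3 ± 14.2 CPM of Mcm6, against 120.0 ± 20.2 CPM in vehicle, and fell 2.32-fold in Ami50 (log2 fold change -1.21, SE 0.13, adjusted p = 3.98e-12). Both had separate Ami50 and vehicle ranges. Mcm2 and Mcm5, measured at 33.2 and 13.9 CPM in Ami50 against 56.7 and 34.7 CPM in vehicle, also fell, by 0.73 and 1.28 on the log2 scale, with ranges that overlapped. In MMI8 and MMI16 none of Mcm2, Mcm3, Mcm5, Mcm6 and Mcm7 was called; their log2 fold changes lay between -0.14 and 0.10.

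Gmnn, whose protein blocks a further round of licensing, was among the deeper falls outside Mcm4. It was measured at 36.0 to 86.8 CPM in PD16 Ami25 (median 50.3) and 42.3 to 105 CPM in PD16 Ami50 (median 69.0), against 135 to 227 CPM in PD16 vehicle (median 174), and the groups did not overlap. It fell 2.81-fold in Ami25 (log2 fold change -1.49, SE 0.14, adjusted p = 1.75e-14) and 2.35-fold in Ami50 (log2 fold change -1.23, SE 0.13, adjusted p = 3.60e-12). Gmnn lay at 147 to 234 CPM in MMI8 and 127 to 238 CPM in MMI16, overlapping vehicle. The loading factors Cdc6 and Cdt1 had log2 fold changes of -1.25 and -0.89 in Ami50, and Cdc45, which joins the ring at firing, -1.01. The GINS subunits Gins1, Gins2 and Gins4 fell as well (-1.36, -0.96 and -1.22 in Ami50). Gins4 averaged 38.6 ± 9.43 CPM in Ami25 and 31.6 ± 9.74 CPM in Ami50, against 76.5 ± 13.4 CPM in vehicle (SD), without overlap between Ami50 and vehicle.

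**Figure D3:**
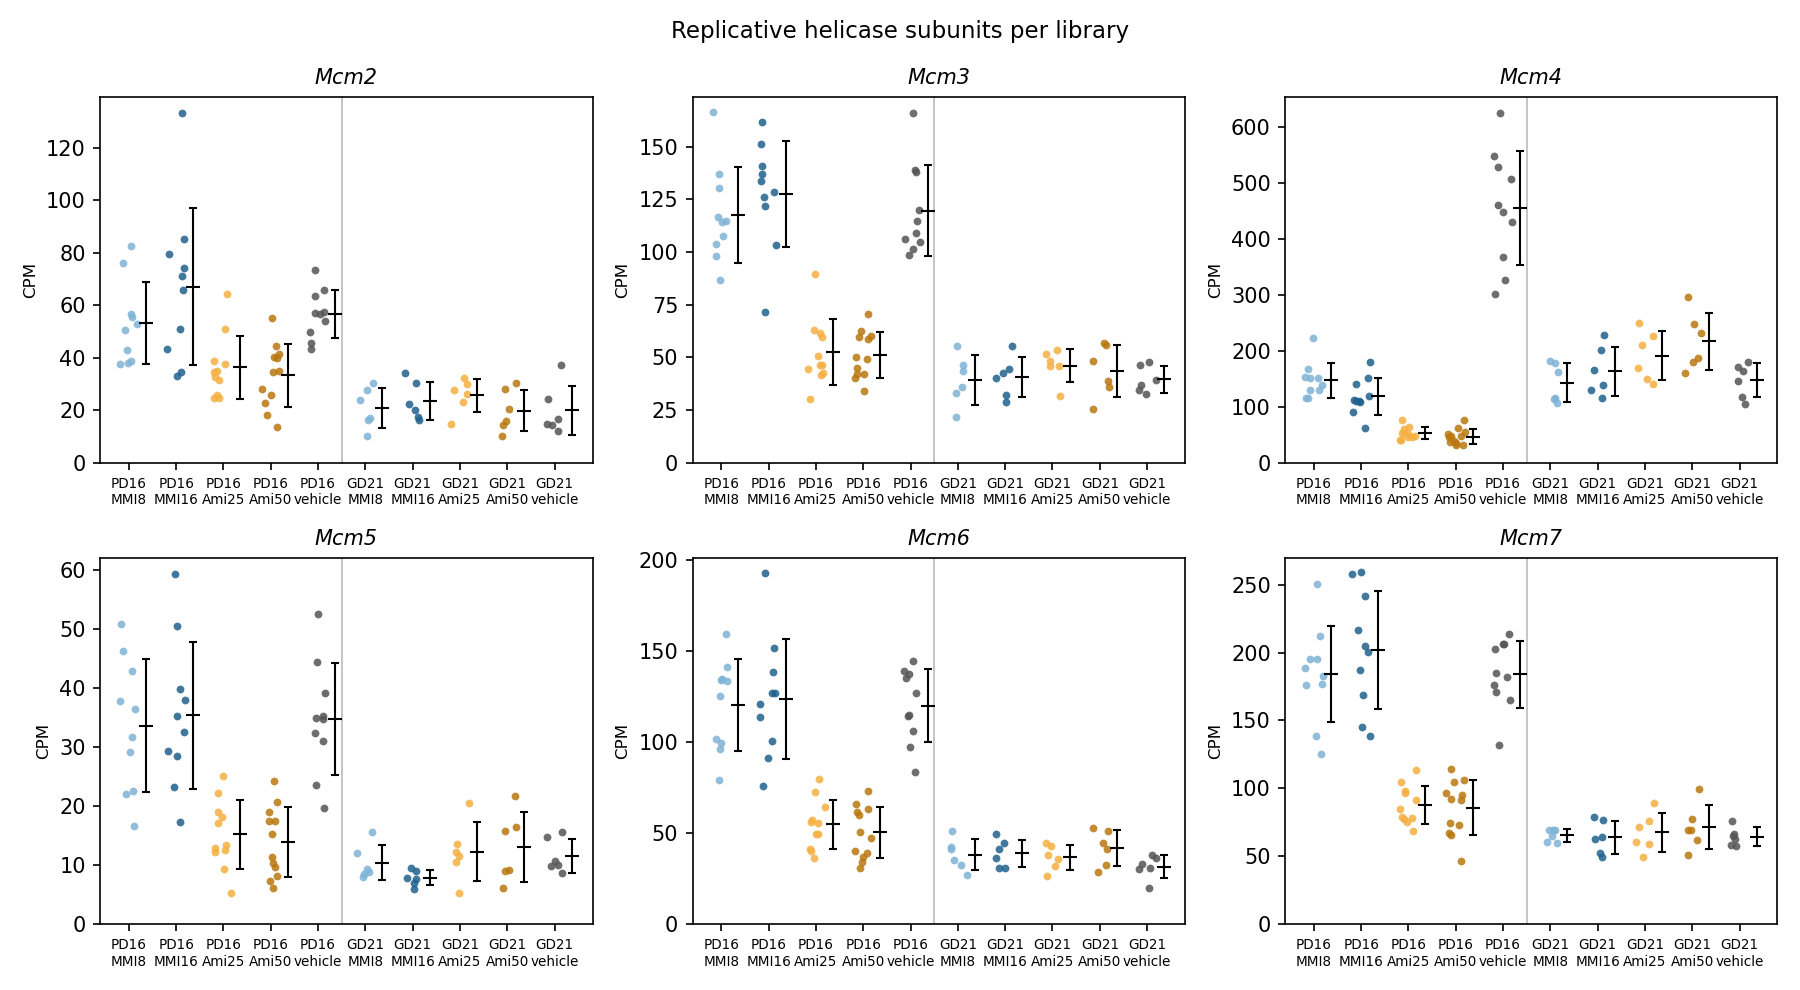
Level of Mcm2 to Mcm7 in each library (CPM, linear axis from 0; points are libraries, the bar and whiskers mean and SD; PD16 left of the grey line, GD21 right of it). Mcm2, Mcm3, Mcm5, Mcm6 and Mcm7 have higher means in PD16 MMI8, MMI16 and vehicle than in the other groups, while Mcm4 stands at 148 and 118 CPM on average in PD16 MMI8 and MMI16 against 455 CPM in PD16 vehicle.

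Fork genes fell in amitrole libraries too, by less on median than the helicase genes. Of 15 tested, 13 fell in Ami25 and 14 in Ami50, with medians of -0.94 and -0.74, where 26.9% and 26.0% of all genes fell. EdgeR called no fork gene in MMI8 or MMI16, where unadjusted p was under 0.05 for 2 and 1 of them. Pcna, the sliding clamp that tethers polymerases, was measured at 105 to 162 CPM in PD16 Ami25 (median 144) and 124 to 190.0 CPM in PD16 Ami50 (median 151), against 200.4 to 342 CPM in PD16 vehicle (median 247), and the groups did not overlap. It fell 1.54-fold in Ami50 (log2 fold change -0.63, SE 0.10, adjusted p = 7.58e-07). In the methimazole groups Pcna lay at 235 to 340.1 CPM in MMI8 and 236 to 379 CPM in MMI16, and both ranges overlapped that of vehicle. Rpa2, a subunit of the complex that coats single-stranded DNA, was measured at 66.2 to 120.5 CPM in PD16 Ami25 (median 90.3) and 72.3 to 133 CPM in PD16 Ami50 (median 86.9), against 153 to 315 CPM in PD16 vehicle (median 273). Its 2.57-fold fall in Ami50 (log2 fold change -1.36, SE 0.13, adjusted p = 2.07e-13) was the deepest of the tested members after Mcm4 and Rrm2, with the GINS gene Gins1 next.

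The other fork genes named by rule were the clamp loader subunits Rfc3 and Rfc4, the small subunit Rpa3 and the ligase Lig1, which seals Okazaki fragments. Rfc3 stood at 71.0 ± 17.3 CPM in Ami50 and at 154 ± 22.5 CPM in vehicle (SD), a log2 fold change of -1.03 (adjusted p = 7.50e-11, edgeR). Rfc4 stood at 76.8 ± 18.1 CPM in Ami50 and at 178 ± 28.2 CPM in vehicle (-1.11, adjusted p = 2.03e-12). Rpa3 was measured at 64.0 to 104 CPM in Ami50 and 133 to 236 CPM in vehicle, and Lig1 at 64.4 to 131 CPM in Ami50 and 131 to 219.7 CPM in vehicle. Rpa3 had a log2 fold change of -1.05 and Lig1 of -0.80, and ranges were separate for Rfc3, Rfc4 and Rpa3 but not for Lig1. Polymerase subunits were spread more widely. Pole2 of polymerase epsilon had -1.09, Pola1 (the catalytic subunit of polymerase alpha) -0.77, and the primase subunits Prim1 and Prim2 -0.64 and -0.65. Pold1 and Pold2 of polymerase delta, at 10.8 and 11.2 CPM in Ami50 against 19.2 and 18.9 in vehicle, rested on few counts a library and had -0.74 (adjusted p = 0.0232) and -0.65 (adjusted p = 0.0264). Pola2, the regulatory partner of Pola1, averaged 29.1 ± 8.15 CPM in Ami25 and 26.8 ± 7.00 CPM in Ami50, against 27.1 ± 7.46 CPM in vehicle (SD). Its Ami50 interval of -0.24 to 0.41 on the log2 scale does not reach the fall of Pola1.

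The genes that supply deoxynucleotides moved in 3 ways. Rrm1, the large subunit of ribonucleotide reductase, Tk1, which salvages thymidine, Dut, which removes dUTP, and Dctpp1, which hydrolyses dCTP, followed the helicase genes. Dctpp1 was measured at 125 to 302 CPM in PD16 Ami25 (median 225) and 137 to 254 CPM in PD16 Ami50 (median 189.6), against 301 to 483 CPM in PD16 vehicle (median 400.1), so Ami50 lay wholly below vehicle, and it fell 1.95-fold in Ami50 (log2 fold change -0.96, SE 0.10, adjusted p = 1.14e-12). Rrm1 averaged 92.7 ± 19.4 CPM in Ami50 and 164 ± 19.5 CPM in vehicle, with a log2 fold change of -0.76. Tk1 averaged 90.4 ± 19.8 CPM in Ami50 and 159.8 ± 19.2 CPM in vehicle, and Dut 118 ± 27.6 CPM in Ami50, against 238 ± 27.8 CPM in vehicle (SD). All 3 had separate Ami50 and vehicle ranges. In MMI8 and MMI16 Dut lay at 167 to 259 and 166 to 465 CPM, where 1 MMI16 library, at 465 CPM, stood apart. Tk1 and Dut had log2 fold changes in Ami50 of -0.76 and -0.89.

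Tyms, which makes thymidylate for DNA, went the other way. It was measured at 143 to 254 CPM in PD16 Ami25 (median 200.3) and 123 to 277 CPM in PD16 Ami50 (median 201), against 112 to 202 CPM in PD16 vehicle (median 147), and the ranges overlapped. It rose 1.33-fold in Ami25 (log2 fold change 0.41, SE 0.10, adjusted p = 7.41e-04) and 1.37-fold in Ami50 (log2 fold change 0.45, SE 0.10, adjusted p = 1.51e-04). Without the 8 Ami50 libraries under 10 CPM of Eif2s3y, the Ami50 value was 0.21 with an adjusted p of 0.247 (edgeR). Over the 10 groups Tyms means lay between 150.1 CPM in PD16 vehicle and 196 CPM in PD16 Ami50.

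**Figure D4:**
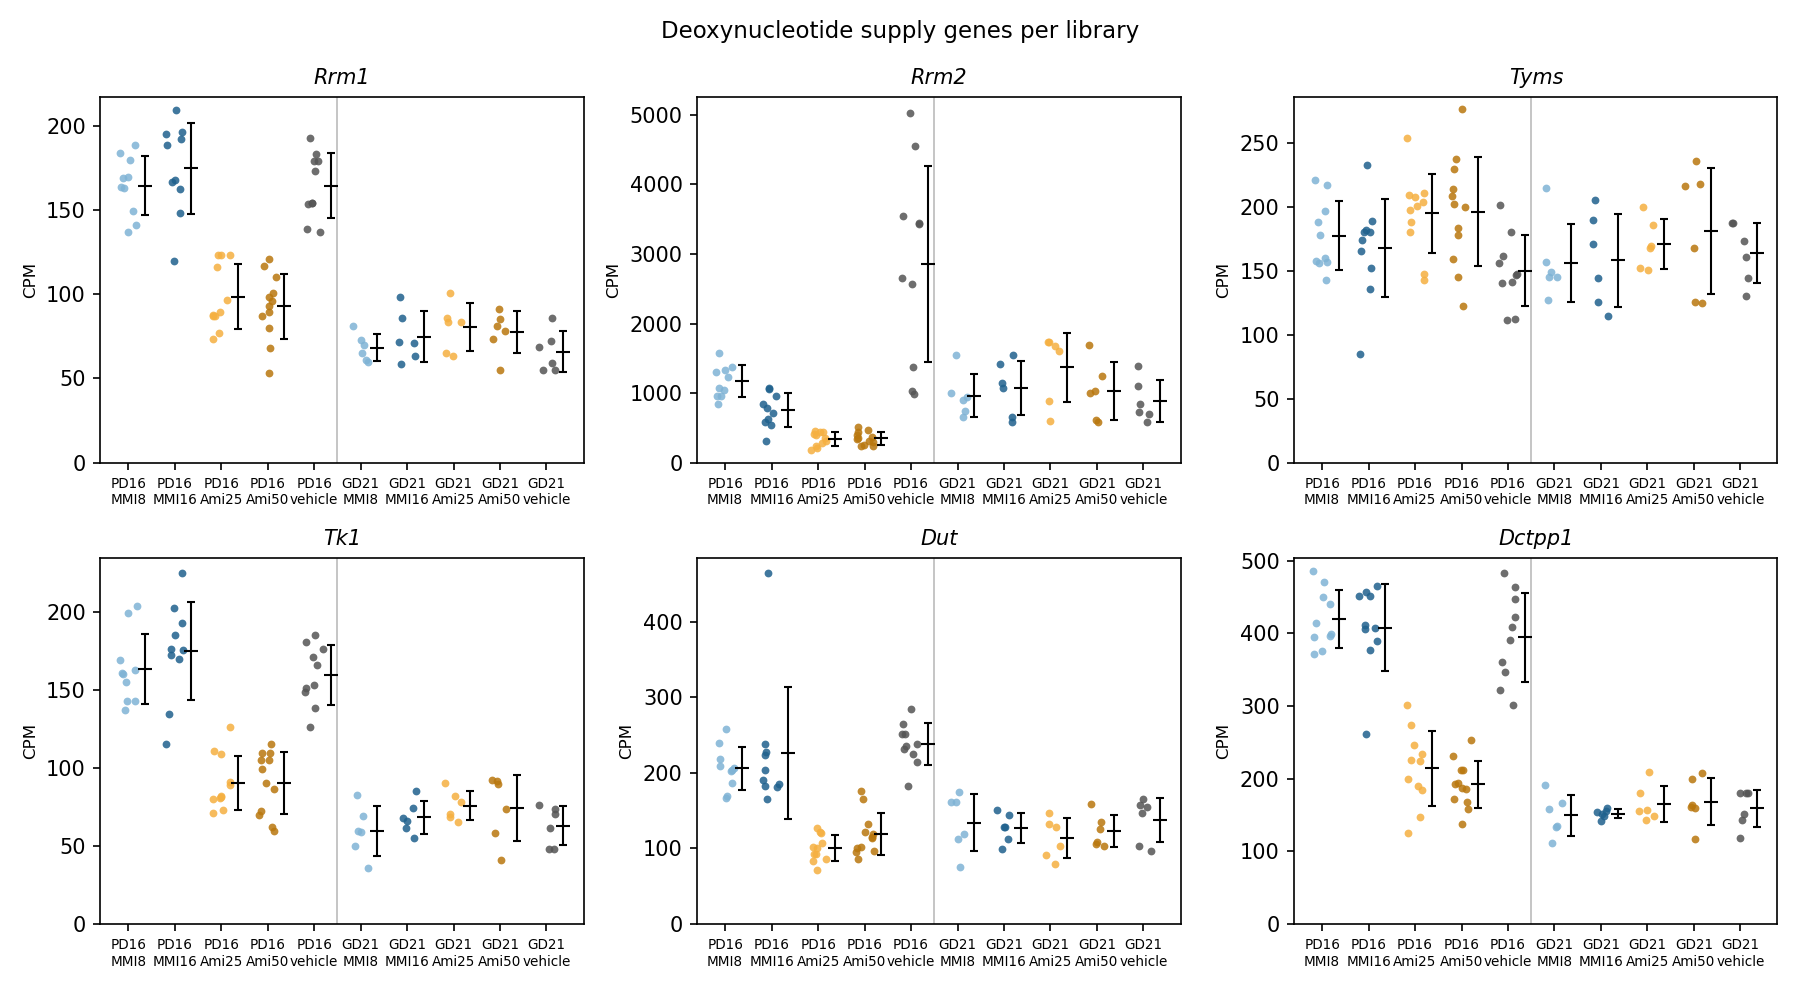
Level of the 6 deoxynucleotide supply genes in each library (CPM, linear axis from 0; points are libraries, the bar and whiskers mean and SD; PD16 left of the grey line, GD21 right of it). Rrm1, Tk1, Dut and Dctpp1 lie lower in PD16 Ami25 and Ami50 than in the other PD16 groups, Tyms overlaps across all groups, and Rrm2 is highest and most spread in PD16 vehicle, at 979.6 to 5023 CPM.

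Of the chromatin genes, Dnmt1, which copies DNA methylation to the new strand, averaged 40.6 ± 11.9 CPM in Ami25 and 43.2 ± 10.3 CPM in Ami50, against 73.4 ± 17.4 CPM in vehicle (SD), and fell 1.59-fold in Ami50 (log2 fold change -0.66, SE 0.15, adjusted p = 9.40e-05). Chaf1b, a subunit of the assembly factor that places histones behind the fork, averaged 15.3 ± 5.75 CPM in Ami50 and 32.8 ± 9.40 CPM in vehicle, a log2 fold change of -1.03 (adjusted p = 3.80e-05). Ccne2 averaged 16.3 ± 3.13 CPM in Ami25 and 17.3 ± 7.69 CPM in Ami50, against 32.0 ± 8.10 CPM in vehicle, and Ccne1 6.72 ± 3.57 CPM in Ami25 and 7.76 ± 4.37 CPM in Ami50, against 15.6 ± 7.93 CPM in vehicle (SD). The cyclin E genes Ccne1 and Ccne2, whose kinase opens S phase, fell by 0.88 and 0.80 on the log2 scale in Ami50. Their ranges overlapped with vehicle.

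Mcm4 and Rrm2 were high in PD16 vehicle, lower in both methimazole groups and lower again in both amitrole groups. Mcm4, a catalytic subunit of the helicase ring, was measured at 116 to 223 CPM in PD16 MMI8 (median 145), 61.5 to 181 CPM in PD16 MMI16 (median 111), 39.9 to 77.0 CPM in PD16 Ami25 (median 50.8) and 30.9 to 76.0 CPM in PD16 Ami50 (median 46.8), against 303 to 626 CPM in PD16 vehicle (median 455). Each treated group lay wholly below vehicle, as 3.06% of all genes did in MMI8 and 3.83% in MMI16. It fell 3.20-fold in MMI8 (log2 fold change -1.68, SE 0.12, adjusted p = 1.99e-17), 4.08-fold in MMI16 (log2 fold change -2.03, SE 0.13, adjusted p = 5.55e-21) and 9.46-fold in Ami50 (log2 fold change -3.24, SE 0.13, adjusted p = 2.06e-30). The Ami25 log2 fold change was -3.10.

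Rrm2, the small subunit whose radical the reductase needs, was measured at 836 to 1576 CPM in PD16 MMI8 (median 1149), 303 to 1079 CPM in PD16 MMI16 (median 752), 179.8 to 454 CPM in PD16 Ami25 (median 348) and 234 to 519 CPM in PD16 Ami50 (median 345), against 979.6 to 5023 CPM in PD16 vehicle (median 3043). Of the 10 vehicle libraries 7 lay at or above 2573 CPM and 3 at 979.6, 1023 and 1377 CPM, inside the MMI8 range, while both amitrole ranges lay below all of them. Rrm2 fell 2.51-fold in MMI8 (log2 fold change -1.33, SE 0.22, adjusted p = 4.04e-06), 3.98-fold in MMI16 (log2 fold change -1.99, SE 0.22, adjusted p = 1.65e-10) and 7.75-fold in Ami50 (log2 fold change -2.95, SE 0.22, adjusted p = 6.36e-17). The Rrm2 span overlaps that of Cys1 in GRCr8. Whether counting used strand is not known here, and Cys1 itself had 30 counts over the 83 libraries.

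The difference between Mcm4 and its partners can be seen within each library. Mcm4 took 22.4 ± 3.45% of Mcm2 to Mcm7 counts in PD16 MMI8, 17.4 ± 2.72% in MMI16, 17.6 ± 2.46% in Ami25 and 16.5 ± 3.45% in Ami50, against 46.6 ± 5.93% in PD16 vehicle (SD). The highest treated PD16 library, at 30.7%, lay below the lowest PD16 vehicle library, at 33.1%. In GD21 the share was 44.9 ± 6.84% in MMI8, 47.9 ± 4.06% in MMI16, 50.0 ± 5.62% in Ami25 and 53.5 ± 4.49% in Ami50, against 46.6 ± 3.71% in vehicle (SD, n = 6 each). The PD16 vehicle range overlapped that of each GD21 group, and no treated PD16 library reached the lowest GD21 library, at 33.5%. Among the other 5 subunits, group means of the share of their own counts ran from 35.7 to 38.7% for Mcm7, 21.3 to 24.5% for Mcm3, 18.8 to 23.6% for Mcm6, 10.4 to 14.7% for Mcm2 and 4.61 to 6.89% for Mcm5. These shares are of counts, which need not equal shares of transcripts. They were chosen after the values had been seen, so they carry no test.

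Rrm2 counts per Rrm1 count also had lower means in the treated PD16 groups, but the methimazole ranges overlapped that of vehicle. The ratio was 7.20 ± 1.63 in PD16 MMI8, 4.27 ± 1.26 in MMI16, 3.50 ± 1.16 in Ami25 and 3.83 ± 0.752 in Ami50, against 17.2 ± 7.69 in PD16 vehicle (SD), where single libraries ran from 5.91 to 28.1. PD16 MMI8 libraries ran from 4.55 to 9.52 and PD16 MMI16 libraries up to 6.43, while PD16 amitrole libraries reached at most 5.67. GD21 means lay between 13.1 and 17.3, and the lowest GD21 library, of Ami50, was at 7.16, inside the PD16 MMI8 range. The 3 PD16 vehicle libraries low in Rrm2 had ratios of 10.1, 5.91 and 6.37, and their Mcm4 shares were 44.8%, 51.6% and 51.7%.

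**Figure D5:**
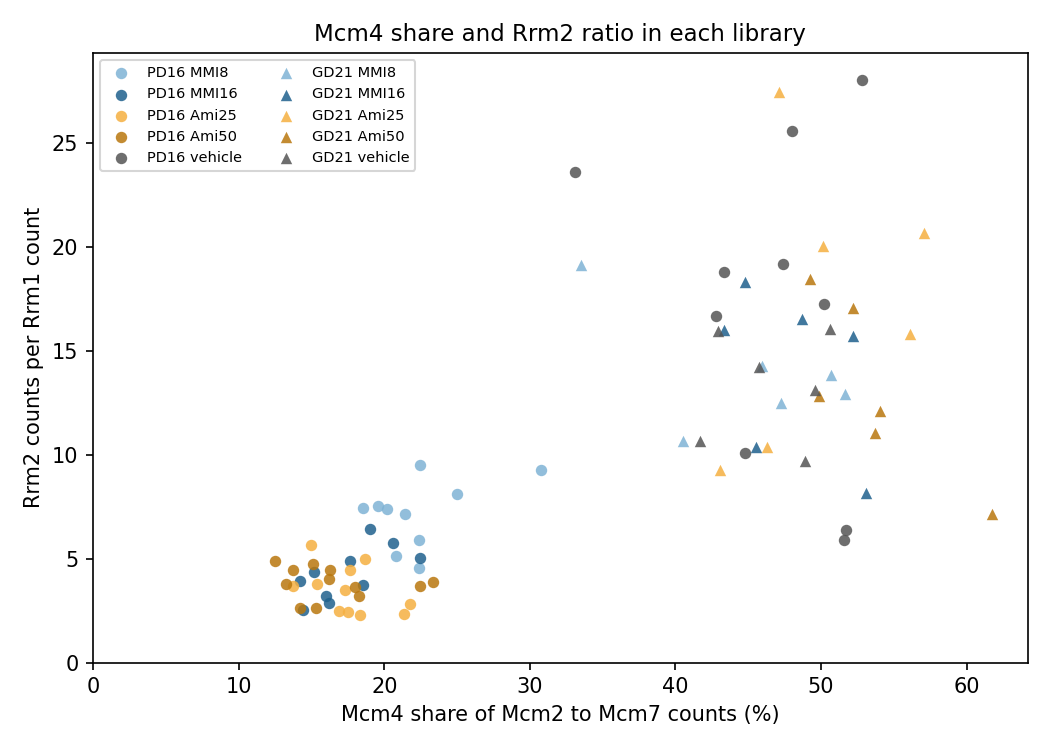
Each point is a library, with the Mcm4 share of Mcm2 to Mcm7 counts (%) on the horizontal axis and Rrm2 counts per Rrm1 count on the vertical axis; circles are PD16, triangles GD21, and colours the treatment. Treated PD16 libraries fill the lower left, at Mcm4 shares up to 30.7%. PD16 vehicle libraries lie at shares of 33.1% or more, near those of GD21. Their Rrm2 ratios, from 5.91 to 28.1, spread past both ends of the GD21 ratios.

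The lower Mcm4 and Rrm2 means held in each of 3 ranges of library number (3 to 20, 21 to 40 and 57 to 86). The labels do not call these ranges, termed runs here, batches. In the first run the MMI8 and vehicle means, and in the third the MMI16 means, rest on 2 libraries each. Mcm4 averaged 159, 125 and 164 CPM in the MMI8 libraries of the 3 runs and 110.5, 123 and 126 CPM in those of MMI16, against 479.8, 469 and 429 CPM in vehicle. Rrm2 averaged 1337, 1169 and 1084 CPM in MMI8 and 621, 818 and 876 CPM in MMI16, against 3043, 2347 and 3282 CPM in vehicle. In each run the treated means were below vehicle.

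The doses of each compound were set side by side next. No member was called between Ami50 and Ami25, where 0% of genes were called, 1 member (Pola1, log2 fold change 0.51) had an unadjusted p under 0.05 (as did 206 of all 4906 genes), and DESeq2 called 0 members. Between MMI16 and MMI8 no member was called either, where 1.81% of all genes were lower and 0.143% higher in MMI16. Unadjusted p was under 0.05 for 3 members there (7.89%, against 11.8% of all genes) and DESeq2 called 0. Mcm4 and Rrm2 had log2 fold changes of -0.35 (95% interval -0.61 to -0.09, adjusted p = 0.206, edgeR) and -0.67 (-1.09 to -0.24, adjusted p = 0.113). With the fit limited to these libraries, Rrm2 was called lower in MMI16 (-0.66, SE 0.15, adjusted p = 0.0208).

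Ami50 was also compared with MMI16, at doses that differ in mg/kg. Of 38 members 36 were lower in Ami50 and 1 higher, where 24.8% of all genes were lower and 22.3% higher. The members' median log2 fold change was -0.96, against -0.04 over all genes, and 12 members had separate ranges, all lower, where 3.02% of all genes had. Mcm4 and Rrm2 were lower in Ami50 by 1.21 (SE 0.14) and 0.96 (SE 0.21) on the log2 scale. Tyms was higher (0.38, adjusted p = 0.00186, edgeR), but not without the 8 Ami50 libraries low in Eif2s3y (0.13, adjusted p = 0.497).

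In the libraries labelled GD21 no member was called for any treatment. Of 36 members tested, 0 were called in MMI8, MMI16, Ami25 and Ami50 against vehicle by edgeR or DESeq2. EdgeR called 0% of the 6236 genes in each. DESeq2 called 22 of all genes in Ami50 and 0 in MMI8, MMI16 and Ami25. Unadjusted p was under 0.05 for 2, 0, 2 and 3 members in these comparisons (5.56%, 0%, 5.56% and 8.33%), and for 2.55%, 3.22%, 8.90% and 6.57% of all genes. The members' median log2 fold change was 0.03, -0.01, 0.09 and 0.12. Mcm4 was measured at 141 to 250.3 CPM in GD21 Ami25 (median 189.8) and 161 to 296 CPM in GD21 Ami50 (median 209.8), against 105 to 181 CPM in GD21 vehicle (median 155). The Ami50 range overlapped the top of the vehicle range. Its log2 fold change was 0.58 in Ami50 (95% interval 0.23 to 0.92, unadjusted p = 0.00257, adjusted p = 0.334 by edgeR), toward a higher level, which is the opposite of its PD16 direction. Mean levels in GD21 MMI8, MMI16, Ami25 and Ami50 were 145, 136, 119 and 144 CPM, against 138 CPM in vehicle for Pcna. For Gmnn they were 50.8, 64.6, 65.9 and 63.3 CPM, against 67.8 CPM in vehicle, and for Dctpp1 149, 152, 165 and 168 CPM, against 159 CPM in vehicle. The greatest difference among these 3 genes was that of Gmnn in MMI8 (log2 fold change -0.39, SE 0.15, adjusted p = 0.999, edgeR). In the same order Rrm2 averaged 963, 1069.9, 1369.6 and 1026 CPM, against 887 CPM in vehicle, and had a log2 fold change of 0.64 in Ami25 (adjusted p = 0.556).

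Whether the difference from vehicle itself differed between the labelled stages was tested as an interaction, whose value is the PD16 log2 fold change minus that of GD21. For Ami50, 28 of 39 members were lower in PD16 relative to GD21, where 15.6% of all 6287 genes were lower and 15.4% higher, and the members' median was -1.05, against 0.03 over all genes. Mcm4 (difference -3.85, SE 0.22, adjusted p = 1.59e-26) and Rrm2 (difference -3.20, SE 0.38, adjusted p = 7.86e-11) had the lowest values among members, and Mcm7 had -1.21. For MMI16, Mcm4 (difference -2.17, SE 0.22, adjusted p = 1.47e-13) and Rrm2 (difference -2.25, SE 0.38, adjusted p = 3.89e-06) were the 2 members called, both lower, where 4.71% of all genes were lower and 0.0636% higher, a share of members near that of all genes. The members' median for MMI16 was 0.04.

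Between the labelled stages the replication genes stood higher in PD16 than in GD21, in vehicle and in methimazole libraries. In vehicle 35 of 39 members were higher in PD16 and 0 lower, where 22.8% of all genes were higher and 21.2% lower, and the median log2 fold change was 1.20, against 0.04 over all genes. In 26 members every PD16 vehicle library lay above every GD21 vehicle library, as 11.0% of all genes did. Rpa2 averaged 253 ± 64.5 CPM in PD16 and 78.0 ± 9.73 CPM in GD21 (log2 fold change 1.55, SE 0.16, adjusted p = 5.15e-14), and Mcm6 120.0 ± 20.2 CPM in PD16 and 31.3 ± 6.37 CPM in GD21 (log2 fold change 1.79, SE 0.16, adjusted p = 2.77e-16). Rfc5, Pola2, Pold2 and Tyms were not called. In MMI16, 36 members were higher in PD16 (all genes 21.7%) and Mcm4 and Rrm2 were lower (all genes 23.7%), by 0.68 and 0.72 on the log2 scale. Tyms was not called. In 25 members the PD16 libraries lay wholly above those of GD21, as 5.95% of all genes did. Without the 15 libraries of 200 CPM or more of Alb the Rrm2 value was -0.46 (adjusted p = 0.212, edgeR).

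In Ami50 the stage difference passed the test for 2 members alone. Of 39 members 0 were higher in PD16 and 2 lower, where 1.26% of all genes were higher and 6.31% lower, so the share of members called was near that of all genes. The members' median log2 fold change was 0.12. The 2 were again Mcm4, at 30.9 to 76.0 CPM in PD16 Ami50 (median 46.8) against 161 to 296 CPM in GD21 Ami50 (median 209.8), and Rrm2, at 234 to 519 CPM in PD16 Ami50 (median 345) against 580.2 to 1688 CPM in GD21 Ami50 (median 1016). Neither pair of ranges overlapped, as 3.29% of all genes lay wholly lower, and the log2 fold changes were -2.36 (SE 0.15) and -1.67 (SE 0.25). Mcm7 had 0.17 (95% interval -0.10 to 0.44) and Pcna -0.02 (-0.27 to 0.23). The embryonic globin shares given above go against the stage labels. These stage comparisons use PD16 and GD21 libraries that also enter the comparisons with vehicle.

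Some members could not be followed. Mcm10, Rfc5, Rpa1 and Uhrf1 did not pass the filter on low counts at PD16, and Mcm10, Cdt1, Pold1, Rpa1, Uhrf1 and Ccne1 did not at GD21. Rpa1, the large subunit of the same complex as Rpa2 and Rpa3, had 29 counts over the 83 libraries, and Uhrf1, which guides Dnmt1 to new DNA, had 12. Mcm10, a helicase activator, averaged 1.48 ± 1.73 CPM in Ami25 and 2.70 ± 2.39 CPM in Ami50, against 6.21 ± 3.37 CPM in vehicle (SD). Rfc5 stood at 8.76 ± 5.31 CPM in Ami25 and 10.4 ± 5.75 CPM in Ami50, against 13.8 ± 4.46 CPM. Both lie at a few counts a library.

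Other genes of the same pathways, kept as separate lists, showed both patterns. In Ami50 against vehicle 13 of 21 other replication genes fell and 2 rose, 9 of 22 nucleotide genes fell and 5 rose, 5 of 9 G1/S regulators fell and 1 rose, and 15 of 18 mitosis genes fell and 0 rose, against 26.0% and 26.4% of all genes. Their medians were -0.65, -0.23, -0.79 and -0.89. The mitotic cyclin gene Ccnb1 (-1.03), the spindle gene Nusap1 (-0.86) and the kinase gene Cdk1 (-0.88) fell by amounts like the helicase genes. The G1 kinase gene Cdk4 fell (-0.80) and its cyclin partners split, with Ccnd1 at -0.80 and Ccnd2 at 0.85. Rnaseh2a, which removes RNA from DNA, rose (0.88), as did the folate enzyme gene Mthfd2 (0.61), while the guanine nucleotide enzyme gene Impdh2 fell (-0.88).

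In methimazole libraries the other lists held few calls. In MMI8 and MMI16 2 of the 21 other replication genes fell and 0 rose, a share near the 6.75% and 7.07% of all genes that fell. They were Rfc1, the large subunit of the clamp loader (-1.38 in MMI8 and -1.71 in MMI16), and Slbp, which binds histone mRNA (-1.45 and -1.37). Rfc1 averaged 95.6 ± 17.6 CPM in MMI16 and 302 ± 53.3 CPM in vehicle (SD, n = 10 each). The loader subunits that are members, Rfc2, Rfc3 and Rfc4, were not called there, with log2 fold changes of 0.22, 0.10 and 0.02 in MMI16. Rfc1 and Slbp were also lower in PD16 Ami50 than in GD21 Ami50 (-1.67 and -1.58). The deaminase gene Dctd was the single nucleotide gene called in MMI16 (0.82). EdgeR called no G1/S or mitosis gene in either group. Unadjusted p was under 0.05 for 0 G1/S genes in MMI8 and 2 in MMI16, and for 1 mitosis gene in MMI8 and 2 in MMI16, of 9 and 18 genes tested.

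Markers of other cells moved with the amitrole result. Between Ami50 and vehicle 11 of 16 tested erythroid genes rose and 3, the embryonic globins, fell, and the erythroid list summed to 66963 to 126677 CPM in Ami50 and 30473 to 44028 CPM in vehicle. All 6 tested adrenal cortex genes rose (sums of 25018 to 65347 CPM in Ami50 and 16511 to 24089 CPM in vehicle). Mc2r, Nr0b1 and Nr5a1, also on that list, averaged 17.1, 12.7 and 0.393 CPM in Ami50, against 16.1, 19.7 and 1.10 CPM in vehicle. Of 7 macrophage genes 6 rose and 1 fell (241 to 526 CPM in Ami50 and 169.6 to 214 CPM in vehicle). Neutrophil genes rose in 5 of 5 (117 to 996 CPM in Ami50 and 8.73 to 60.2 CPM in vehicle). Liver genes rose in 5 of 5 (77.4 to 11133 CPM in Ami50 and 61.1 to 349 CPM in vehicle), but the median library was at 108 CPM in Ami50 and 138 CPM in vehicle, and 3 of 12 Ami50 libraries reached 200 CPM of Alb. In contrast, 4 of 9 endothelial genes fell (252 to 452 CPM in Ami50 and 619 to 912 CPM in vehicle). Kdr and Pecam1 averaged 98.5 and 38.5 CPM in Ami50, against 286 and 199.7 CPM in vehicle. Flt1 and Tie1 averaged 19.9 and 14.5 CPM in Ami50, against 20.0 and 14.4 CPM in vehicle. Of all genes tested between Ami50 and vehicle, 26.4% rose and 26.0% fell. In the methimazole groups 6 markers were called in MMI8 and 5 in MMI16. Of all genes tested, 6.75% fell and 1.37% rose in MMI8, and 7.07% fell and 0.713% rose in MMI16. Sox9 averaged 26.0 CPM in MMI8 and 13.4 CPM in MMI16, against 139 CPM in vehicle (log2 fold changes -2.45 and -3.53). The endothelial gene Kdr (-1.38 and -1.83) and the macrophage gene Mrc1 (-1.63 and -2.73) were lower in both groups too. So was the endothelial gene Pecam1, at 53.4 CPM in MMI8 and 51.9 CPM in MMI16, against 199.7 CPM in vehicle. The adrenal cortex gene Star was higher (0.65) and the mesenchyme gene Pdgfra lower (-1.05) in MMI8, and the medulla gene Ddc lower (-0.46) in MMI16. The endothelial list summed to 367 to 511 CPM in MMI8 and 316 to 539 CPM in MMI16. Kdr and Pecam1 were the only endothelial genes called there, as Mrc1 was the only macrophage gene. Kdr averaged 113 CPM in MMI8 and 85.8 CPM in MMI16, against 286 CPM in vehicle. Kdr and Pecam1 thus carried most of the difference in the endothelial sum, which is not a fall of the whole list. The members and the embryonic globin share were both low in PD16 Ami25, PD16 Ami50 and all GD21 groups, and both high in the other PD16 groups. The part of these markers in the members' differences was not tested.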

How the data were processed

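RNA from 83 libraries was sequenced by a bulk method that reads the 3′ ends of barcoded transcripts. The authors deposited raw counts per gene symbol, and BWA 0.7.4.4 and the rn6 build appear in the submitters' processing notes. The counting tool, its annotation and its use of strand are not stated in the labels or file headers. Groups came from the labels. Genes passing edgeR's filter (minimum count 10) were scaled by TMM and tested by the quasi-likelihood F test (edgeR 4.0.16, R 4.3.3, robust fit, Benjamini-Hochberg adjustment). The 5 groups of a stage shared a fit, and all 10 groups shared one for stage comparisons and interactions. Intervals are 1.96 SE. Library totals limit the precision. No pair of libraries within a group agreed within sampling noise (331 pairs). DESeq2 1.42.0 and other filters, scalings, covariates and sets of libraries were alternatives, and the code was tested on simulated data. All members could be named, and 19 get fuller values: the highest by mean CPM in each role among those tested at both stages, with members called in methimazole or against the common direction. The members and lists were chosen with earlier results of these data known.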

Additional observations from a re-analysis of the deposited data

Results flagged for a closer look

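Interaction tests called the Ami50 difference from vehicle lower in PD16 than in GD21, by label, in 28 of 39 members tested. Of all genes, 15.6% were lower and 15.4% higher. Among the 19 members described most fully, chosen partly by their calls, there were 18. Beside Mcm4 (-3.85) and Rrm2 (-3.20), the helicase and licensing genes were Mcm3 (-1.32), Mcm6 (-1.67), Mcm7 (-1.21), Gmnn (-1.16) and Gins4 (-1.16), on the log2 scale. The fork genes were Pcna (-0.75), Rfc3 (-1.05), Rfc4 (-1.23), Rpa2 (-1.40), Rpa3 (-0.92) and Lig1 (-0.77). The others were Dut (-0.79), Dctpp1 (-1.09), Dnmt1 (-0.76), Chaf1b (-1.45) and Ccne2 (-1.12). For MMI16 the differences from vehicle of Mcm4 (-2.17) and Rrm2 (-2.25) differed between the labelled stages in the same direction. Adjusted p by edgeR lay between 1.59e-26 for Mcm4 and 0.00925 for Dut in Ami50.

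A single library stood far from the rest of its group in 16 of 160 groups checked (20 quantities in 8 groups of 6 to 10 libraries each), and chance gives about 1 in 20. In PD16 these were a high Mcm4 library in MMI8 (223 CPM), and in MMI16 a low Rfc4 library (93.9 CPM), a library high in Ccne2 (65.0 CPM), and another that was high in Dut (465 CPM) and low in Dctpp1 (261 CPM). A PD16 vehicle library was high in Gins4 (109.8 CPM). In GD21 Ami25 the same library was low in Mcm3 (31.5 CPM) and Rpa3 (54.4 CPM), and in GD21 Ami50 the same library was high in Gmnn (97.6 CPM) and Rpa2 (104 CPM). In GD21 MMI16 the same library was low in Rpa3 (43.3 CPM) and high in Ccne2 (22.4 CPM), and a GD21 MMI8 library was high in Tyms (215 CPM). In GD21 vehicle the same library was high in Rpa3 (114 CPM) and Ccne2 (22.0 CPM), and another was high in Dnmt1 (50.0 CPM).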

How the results depend on the processing

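Counts of called members were recomputed under 9 alternatives in 16 comparisons. Of 144 such counts 143 were within 1.5 times the count reported. These include counts of 0 that stayed at 0, as in every GD21 comparison with vehicle. The other was MMI16 against MMI8, where a fit to those libraries alone called 1 member of 34 tested, Rrm2. The fold changes of the 19 members described most fully were recomputed in the 119 comparisons where they had been called, and uncalled ones enter only the counts above. Of these 1071 values 1065 kept their direction and side of the threshold and 0 reversed. The other 6 kept their direction and lost the call. Without the libraries under 10 CPM of Eif2s3y these were Tyms, given above, and the Ami50 interaction of Dut (-0.47, adjusted p = 0.222, edgeR). Without those at 200 CPM or more of Alb they were Rrm2, given above, and Dut (0.28, adjusted p = 0.150, edgeR) between PD16 and GD21 MMI16, and the Ami50 interaction of Ccne2 (-0.79, adjusted p = 0.144, edgeR). Both of these exclusions were chosen after seeing the data. With totals scaled by TMM factors the mean sum of all 42 members was 4955 CPM in PD16 MMI8 and 4497 CPM in PD16 MMI16. On the plain library totals these means were 5327 and 4943 CPM. With totals that leave out globins the mean sum was 2659 CPM in PD16 Ami25 and 2664 CPM in PD16 Ami50, against 2404 and 2427 CPM on the plain totals. The cause was not tested. The run of library numbers as a covariate changed no call among these fold changes. No paired analysis was possible because the groups share no library numbers. At a PD16 median total of 492083 counts, members near 10 CPM rest on few counts a library, so a missed call does not show equal levels.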
